A study of Homo sapiens with 6 samples.

Results

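HOX genes are the homeobox genes of the 4 HOX clusters, named by a cluster letter, A to D, and a paralogue number from 1 to 13. They were taken here as every gene of the array annotation with such a symbol, read by probe sets that carry that symbol alone, with the brightest probe set standing for the gene. This gave 27 HOX genes among 18132 genes in all: 1 of the HOXA cluster (HOXA2), 10 of HOXB, 9 of HOXC and 7 of HOXD. RefSeq lists 39 such genes, and the other 12 (10 HOXA genes, HOXD3 and HOXD11) are not analysed here. HOX proteins are transcription factors that give cells of the embryo their position along the head-to-tail axis and the limb. Within a cluster, genes of low number act toward the head and genes of high number, called posterior, toward the tail. Polycomb and trithorax proteins keep their embryonic on or off state through later divisions, and retinoic acid is a classical activator of the low-numbered genes. Many adult cells and tumour lines, melanoma lines among them, go on transcribing a set of HOX genes.

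The study profiled total RNA of A375, an established human melanoma cell line, on 6 Affymetrix expression arrays. Control arrays (n = 3) held RNA of A375 cells as such, and knockdown arrays (n = 3) held RNA of A375 cells in which MAP4K5, a kinase upstream of the JNK pathway, is stably knocked down by shRNA. All 6 cultures grew in the same serum-containing medium with no treatment. The labels name no control hairpin and no clone, so effects of the hairpin, of making the stable line and of MAP4K5 loss cannot be told apart. The labels call the arrays biological replicates without saying how the cultures were separated, so the p-values below rest on array-to-array spread alone, which may be technical.

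Levels are RMA intensities on a linear scale, deposited by the authors, and the array medians lay between 4.85 and 4.94. MAP4K5 measured 76.3 to 78.1 in the control arrays and 18.8 to 20.3 in the knockdown arrays, so the labels held in all 6. Control replicate 2 stood apart: over all genes it correlated at 0.993 to 0.994 with the knockdown arrays and at 0.992 with the other controls, so its value is given for the HOX genes described array by array. Of the melanoma line markers, SOX10, MIA, S100B, MITF and PRAME measured above the median gene in the mean of the 6 arrays, while the pigment genes PMEL, MLANA, TYR and TYRP1 lay between 2.34 and 3.90 in every array. Of 18 measured markers of epithelial, fibroblast, leukocyte and endothelial cells, 1 (epithelial) reached the median gene. The summed epithelial level was 25.2 to 38.3 in control and 36.5 to 41.6 in knockdown arrays. MITF rose and SOX10, S100B and MIA fell (limma, adjusted p under 0.05). Of these, S100B was called in all 6 fits that left out 1 array, MITF in the 3 that left out a control, and SOX10 and MIA only without control 2. The part of this shift in the HOX values was not tested.

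Of the 27 HOX genes, 1 fell in the knockdown cells, HOXB9, 0 rose and 26 were not called (limma, Benjamini-Hochberg adjusted p under 0.05 over all genes). The share called was 3.70%, beside 7.83% of all 18132 genes, 3.7% upwards and 4.13% downwards. Of the 17 HOX genes at or above the median gene in mean intensity, 5.88% were called, beside 13.5% of all such genes. At an unadjusted p under 0.05 there were 6 HOX genes (HOXB2, HOXB7, HOXB9, HOXC4, HOXC11 and HOXD8), or 22.2%, beside 23.5% of all genes. The median log2 fold change, knockdown minus control, was -0.01 over the HOX genes and 0.01 over all genes, and the median absolute change was 0.08 beside 0.12. In 15 of the 27 the change was under 0.1 on the log2 scale. The 2 HOX genes with the largest differences were HOXB9, at -1.41, and HOXD8, at -0.71, which did not pass the test. Changes of at least that size were seen in 0.513% and 3.18% of all genes.

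**Figure D1:**
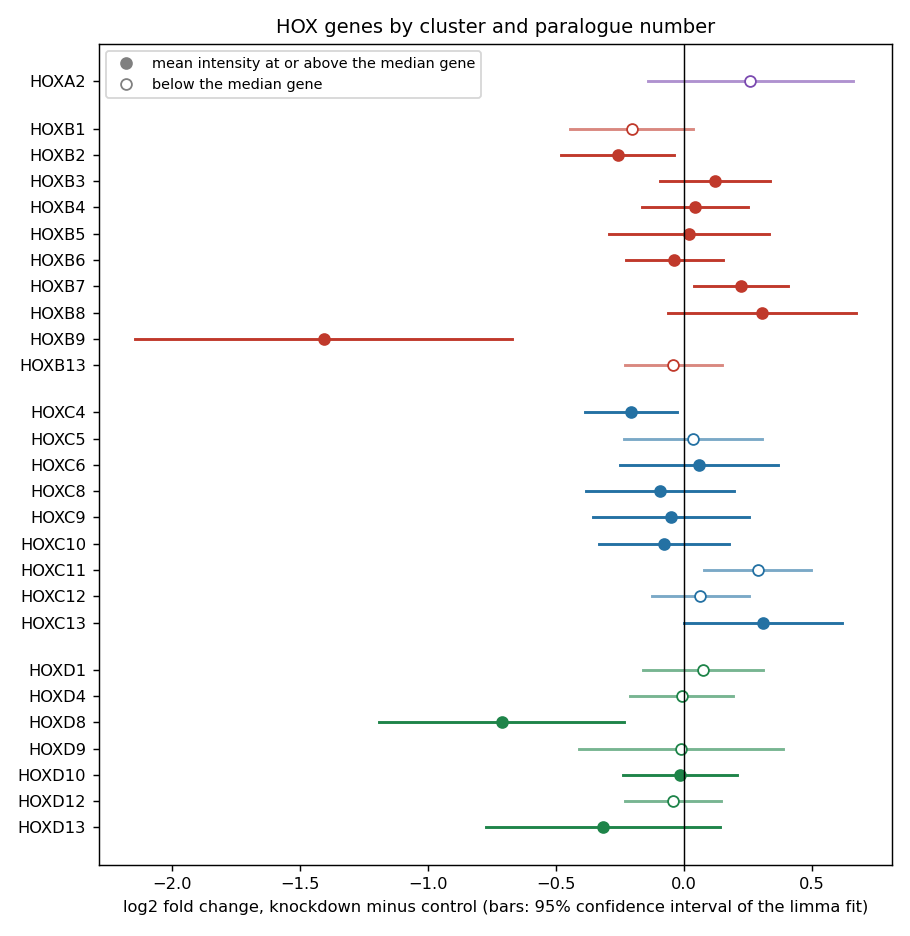
Log2 fold change, knockdown minus control, of each HOX gene with its 95% confidence interval from limma (3 arrays per group), ordered by cluster and paralogue number; open symbols are genes whose mean intensity lay below the median gene. HOXB9, at -1.41, and HOXD8, at -0.71, stand away from the other 25 genes, which lie between -0.32 and 0.31.

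The half-width of the 95% confidence interval had a median of 0.24 on the log2 scale over the HOX genes and 0.23 over all genes. For 25 of the 27 HOX genes, all but HOXB9 and HOXD8, the interval lay within a 2-fold change either way, and for 21 within a 1.5-fold change. Of the 27, 10 had a mean below the median gene, at 8.68 in intensity, where RMA compresses folds: HOXA2, HOXB1, HOXB13, HOXC5, HOXC11, HOXC12, HOXD1, HOXD4, HOXD9 and HOXD12. A narrow interval for these genes limits the measured intensity and not the transcript.

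The posterior gene HOXB9, a patterning factor of the thoracic skeleton and the mammary gland, measured 98.1, 39.3 and 98.8 in control replicates 1, 2 and 3. In the knockdown arrays it measured 24.2, 27.4 and 30.8. Every knockdown array was lower than every control array, and control replicate 2 lay far nearer to the knockdown arrays than to the other controls. The means were 78.7 ± 34.2 and 27.4 ± 3.30 (SD, n = 3 each), and the fold between the means of the log2 values, as for every fold given here, was 2.66, with a 95% confidence interval from 1.59 to 4.43. On the log2 scale HOXB9 changed by -1.41 ± 0.32 (SE; limma adjusted p = 0.0364). Against controls 1 and 3 together the difference was -1.85, and against control 2 alone it was -0.53. The call was kept among the 6 fits that left out 1 array only without control replicate 2 (adjusted p = 4.33e-05) and was lost without control 1 or 3 or any knockdown array, where the change was -1.50 to -1.19 and the adjusted p 0.103 to 0.148. It was also lost with 8 added to each intensity before the log (-1.20, adjusted p = 0.089). One probe set reads HOXB9, and RefSeq lists no gene overlapping it.

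HOXD8, a gene of the central part of the cluster that is active in the embryonic trunk and limb, measured 24.8, 16.1 and 31.3 in control replicates 1, 2 and 3 and 14.0, 14.8 and 13.8 in the knockdown arrays. The groups did not overlap, but control replicate 2 was within a few units of the knockdown arrays. The means were 24.1 ± 7.63 and 14.2 ± 0.531 (SD, n = 3 each), with a log2 difference of -0.71 ± 0.21 (SE) that did not pass the test (limma adjusted p = 0.0774). Its second probe set measured 14.0, 8.87 and 15.2 in control and 7.79, 8.32 and 8.62 in knockdown arrays, a difference of -0.59 with control 2 again the lowest control. Without control replicate 2 HOXD8 passed (-0.98, adjusted p = 0.000819), and over all 6 fits without 1 array the difference ran from -0.98 to -0.50. Against control 2 alone it was -0.19. The IDs of both probe sets end in _x_at or _s_at, a mark for probes that can bind several transcripts.

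**Figure D2:**
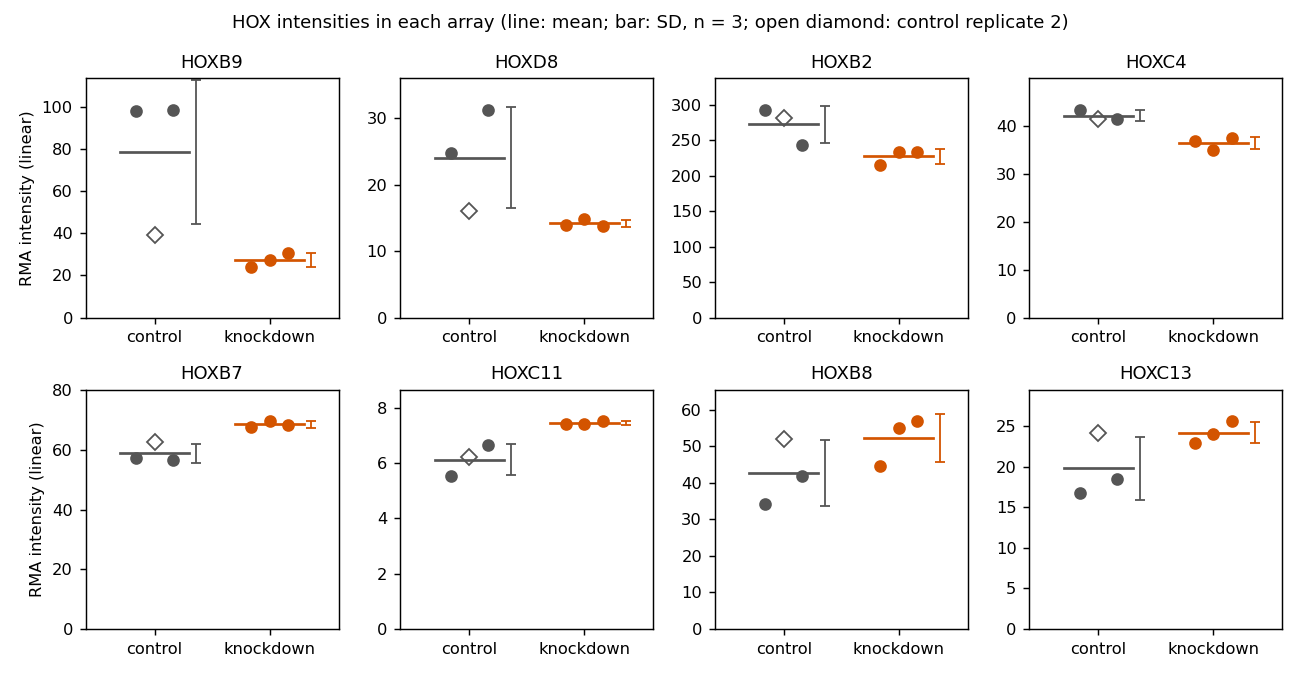
RMA intensity of 8 HOX genes in each array, on linear axes that start at 0, with the group mean (line) and SD (bar, n = 3); the open diamond is control replicate 2. For HOXB9 and HOXD8 control replicate 2 (39.3 and 16.1) lies near the knockdown arrays, and for HOXB8 and HOXC13 (52.0 and 24.1) it lies among them.

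Of the 27 HOX genes, 6 (22.2%) had groups that did not overlap, beside 28.1% of all genes (14.9% higher and 13.2% lower in knockdown arrays). At or above the median gene the shares were 29.4% of HOX genes and 42.2% of all genes. HOXB2, HOXB9, HOXC4 and HOXD8 were lower in every knockdown array and HOXB7 and HOXC11 higher. The 4 genes other than HOXB9 and HOXD8 differed by 0.29 or less on the log2 scale, and none of them passed the test. Leaving out control replicate 2, which was done for every gene alike, gave 5 HOX calls: HOXB9 and HOXD8 fell, and HOXB7 (0.27), HOXB8 (0.46) and HOXC13 (0.46) rose. That is 18.5% of the HOX genes, beside 20.6% of all genes in the same fit (10.5% up, 10.1% down). In each of the 5 fits that left out another array, 0 HOX genes were called. The share of all genes called was 2.88% when control 1 was left out and 3.12% when control 3 was. For knockdown arrays 1, 2 and 3 it was 1.79%, 2.05% and 2.16%.

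Other ways of handling the arrays kept HOXB9 as the single HOX call. The share of all genes called was then 6.55% with the replicate number as a block, 8.76% with an intensity trend, 8.37% with a common array median and 8.04% with repeated quantile normalization. It was 11.3% and 18.0% with the dimmest 25% and 50% of genes left out, 6.34% with probe sets averaged by gene and 6.48% with neither _x_at nor _s_at probe sets. With limma's array weights HOXC13 rose and HOXB9 and HOXD8 fell, beside 17.1% of all genes (8.64% up, 8.47% down). With 8 added to each intensity before the log, HOXB7 rose and HOXC4 fell, beside 7.73% (3.88% up, 3.85% down).

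**Figure D3:**
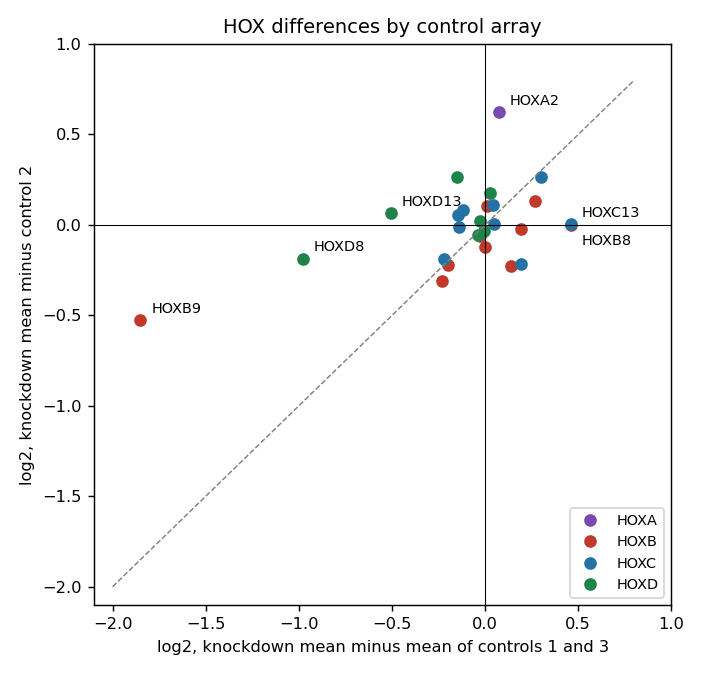
Log2 difference of each HOX gene between the knockdown mean and controls 1 and 3 (horizontal) and between the knockdown mean and control replicate 2 alone (vertical), coloured by cluster, with equality as a dashed line. HOXB9 lies at -1.85 and -0.53, HOXD8 at -0.98 and -0.19, and HOXB8 and HOXC13 at 0.46 and about 0.

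The HOXB cluster, on chromosome 17, was read at all 10 of its genes. Of these, 1 fell (HOXB9) and 9 were not called, or 10% called beside 7.83% of all genes. There were 5 changes above and 5 below 0, with a median of -0.01. The low-numbered HOXB1, a hindbrain gene, measured 3.31 ± 0.217 in control and 2.88 ± 0.313 in knockdown arrays (SD, n = 3 each). HOXB2, which also patterns the hindbrain, measured 293, 281 and 243 in control and 215, 234 and 233 in knockdown arrays. Its groups were apart by a small margin, with a log2 difference of -0.26 ± 0.10 (SE, limma adjusted p = 0.148).

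No gene from HOXB3 to HOXB6 passed the test. HOXB3 measured 68.9 ± 6.43 in control and 74.7 ± 3.19 in knockdown arrays, and HOXB4, known for expanding blood stem cells, 79.5 ± 6.47 and 81.8 ± 3.86 (SD, n = 3 each). HOXB5 measured 13.9 ± 2.16 and 14.1 ± 1.87, and HOXB6 12.8 ± 0.571 and 12.5 ± 0.642. In all of these the groups overlapped, and the 95% confidence intervals of the log2 differences reached no further than -0.29 and 0.34. HOXB7, a gene studied in melanoma as an activator of the growth factor gene FGF2, measured 57.2, 62.6 and 56.6 in control and 67.6, 69.7 and 68.2 in knockdown arrays. All knockdown values were higher, with control 2 the nearest, and the log2 difference was 0.22 ± 0.08 (SE, adjusted p = 0.139). HOXB7 passed with 8 added before the log (0.20, adjusted p = 0.048).

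HOXB8, the neighbour of HOXB9 on the chromosome, measured 34.1, 52.0 and 41.8 in control and 44.7, 55.0 and 56.9 in knockdown arrays. Its groups overlapped through control replicate 2, and the log2 difference was 0.30 ± 0.16 (SE, limma adjusted p = 0.303), opposite in sign to that of HOXB9. The changes of HOXB9 and HOXB8 differed by -1.71 on the log2 scale when their ratio was taken within each array. Such within-array ratios were compared for 6 pairs of HOX genes picked after their values were seen, and this pair gave an exact two-sided permutation p of 0.1 (no smaller value can arise from groups of 3; 0.12 adjusted over the 6 pairs). Each pair held HOXB9 or HOXD8, the HOX genes with the largest differences, so the ratios largely restate those differences. The adjustment does not cover that choice. HOXB13, a prostate gene that lies apart at the other side of HOXB9, measured 7.31 ± 0.486 in control and 7.08 ± 0.0142 in knockdown arrays (SD, n = 3 each). The one long non-coding RNA of the HOX clusters that was read, HOXB-AS3, lies over HOXB5 and HOXB6 in RefSeq and measured 4.72 ± 0.433 and 4.73 ± 0.415.

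The HOXC cluster, on chromosome 12, was also read at all of its 9 genes, and 0 were called, beside 7.83% of all genes. The median log2 change was 0.03, with 5 changes above and 4 below 0, and the 95% confidence intervals of all 9 lay within a 2-fold change. HOXC4 measured 43.4, 41.5 and 41.4 in control and 36.9, 35.0 and 37.5 in knockdown arrays. The groups were apart and control replicate 2 lay with the other controls, with a log2 difference of -0.21 ± 0.08 (SE, limma adjusted p = 0.151). HOXC4 passed only with 8 added before the log (-0.17, adjusted p = 0.0422). HOXC5 measured 6.65 ± 0.220 and 6.87 ± 1.04, and HOXC6 measured 220, 264 and 180 in control and 225, 222 and 236 in knockdown arrays. The control values of HOXC6 enclosed those of the knockdown arrays, with a log2 difference of 0.06 ± 0.13 (SE).

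RefSeq gives HOXC4, HOXC5 and HOXC6 overlapping spans, and HOXC4 and HOXC5 the same start, so the signal of one gene's probes can include transcripts of another. The 250 bases before that shared start are shown because HOXC4 and HOXC5, though given 1 start, had log2 changes of -0.21 and 0.03, a difference that was not tested. They are at chr12:54016638-54016887 on the plus strand of GRCh38.p14 (RefSeq). The 250 bases before the start of HOXD8, at chr2:176129455-176129704 on the plus strand of the same build, are shown beside them as the window of the member with the second largest change. HOXB9, HOXB2, HOXB7 and HOXC11 had no entry in the table used, and 10 of the 27 genes had one. Capitals mark the matches to CCAAT, the letters of the box of that name (its reverse complement is ATTGG), and, in the second window, to the letters TTATGG, the core of sites that posterior HOX and CDX proteins bind.
HOXC4 and HOXC5: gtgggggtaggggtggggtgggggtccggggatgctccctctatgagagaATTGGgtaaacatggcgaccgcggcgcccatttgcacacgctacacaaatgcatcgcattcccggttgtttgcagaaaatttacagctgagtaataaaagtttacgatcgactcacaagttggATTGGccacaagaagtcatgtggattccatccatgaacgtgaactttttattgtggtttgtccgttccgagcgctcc
HOXD8: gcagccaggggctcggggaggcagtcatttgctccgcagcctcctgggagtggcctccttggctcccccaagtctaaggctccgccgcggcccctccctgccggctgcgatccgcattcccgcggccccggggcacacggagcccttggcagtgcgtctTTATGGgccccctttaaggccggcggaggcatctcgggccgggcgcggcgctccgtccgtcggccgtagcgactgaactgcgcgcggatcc
On both strands, CCAAT was found 2 times before HOXC4, with matches starting 200 and 77 bases before the start, and 0 times before HOXD8. TTATGG was found once before HOXD8, 91 bases before the start, and 0 times before HOXC4. Of 34943 windows of 250 bases before RefSeq starts, 32.0% held CCAAT and 5.60% held the motif found before HOXD8. The TATA box, searched as TATAAA, was in neither window, and 10.8% of all windows held it. A site of HOX with PBX proteins, searched as TGATNNAT, was also in neither, and 6.49% of all windows held it. None of these motifs overlapped another in the windows shown. The HOXD8 window held 28 CG pairs and the HOXC4 window 14, beside a median of 11 over all windows.

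None of the next HOXC genes passed the test. HOXC8, a gene of the thoracic skeleton, measured 34.6 ± 5.74 in control and 32.1 ± 2.50 in knockdown arrays, HOXC9 16.3 ± 3.28 and 15.6 ± 0.480, and HOXC10, a gene of lumbar motor neurons, 25.7 ± 2.96 and 24.3 ± 2.11 (SD, n = 3 each). Their groups overlapped. HOXC12 was dim, at 2.70 ± 0.0794 and 2.82 ± 0.164.

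At the posterior end, HOXC11 measured 5.52, 6.21 and 6.64 in control and 7.41, 7.41 and 7.53 in knockdown arrays. The knockdown values were all higher, at intensities below the median gene, with a log2 difference of 0.29 ± 0.09 (SE, limma adjusted p = 0.097), and its second probe set gave 0.01. HOXC13, a gene of hair and nail, measured 16.7, 24.1 and 18.5 in control and 23.0, 24.0 and 25.6 in knockdown arrays. Control replicate 2 lay among the knockdown arrays, and the log2 difference was 0.31 ± 0.14 (SE, adjusted p = 0.217). HOXC13 passed without control replicate 2 (0.46, adjusted p = 0.00915) and with limma's array weights (0.39, adjusted p = 0.0378).

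The HOXD cluster, on chromosome 2, was read at 7 of its 9 genes. None of these 7 was called, beside 7.83% of all genes. With so few genes per cluster, such counts do not tell the clusters apart. Of the 7 changes, 6 were below 0, with a median of -0.02 on the log2 scale. Those of HOXD4, HOXD9, HOXD10 and HOXD12 lay between -0.04 and -0.01, and the other probe set of HOXD9 gave 0.14. Of all 18132 genes, 8571 had a change below 0. Of the 7, 4 were below the median gene: HOXD1 measured 2.48 ± 0.156 in control and 2.61 ± 0.271 in knockdown arrays, HOXD4 2.78 ± 0.213 and 2.76 ± 0.112, HOXD9 6.90 ± 1.61 and 6.77 ± 0.993, and HOXD12 2.22 ± 0.0712 and 2.16 ± 0.129 (SD, n = 3 each). HOXD10, a gene of lumbar motor neurons and limb, measured 10.1 ± 0.261 and 10.0 ± 1.09. Beside HOXD8, the neighbours HOXD9 and HOXD4 each differed by -0.01. Within arrays, the change of HOXD8 relative to HOXD9 was -0.70, with an exact permutation p of 0.1 (0.12 adjusted over the 6 pairs). This pair too was picked after its values were seen, and 0.1 is the smallest p that can arise. HOXD13, which shapes digits, measured 11.7, 9.31 and 16.4 in control and 9.31, 8.60 and 11.5 in knockdown arrays. Its groups overlapped, with control 2 at the level of the lower knockdown arrays, and the log2 difference was -0.32 ± 0.20 (SE, limma adjusted p = 0.397).

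The single HOXA gene, HOXA2, which gives the second branchial arch its identity, was dim. It measured 4.84, 2.92 and 3.77 in control and 4.01, 5.00 and 4.56 in knockdown arrays. The groups overlapped, and the log2 difference was 0.26 ± 0.18 (SE, limma adjusted p = 0.435), with -0.02 at its second probe set.

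Paralogues are the genes of one number in different clusters, which arose by duplication of an ancestral cluster. In group 9, HOXB9 stood at -1.41, HOXC9 at -0.05 and HOXD9 at -0.01. Within arrays the change of HOXB9 differed by -1.36 from that of HOXC9 and by -1.40 from that of HOXD9, each with an exact permutation p of 0.1 (0.12 adjusted over the 6 pairs). The pairs were built on HOXB9 and HOXD8 after the values were seen, so their ratios largely restate the changes of these genes. The adjustment does not cover that choice, and 0.1 is the smallest p that can arise. In group 8, HOXB8 stood at 0.30, HOXC8 at -0.10 and HOXD8 at -0.71. The change of HOXD8 differed by -0.62 from that of HOXC8 (exact permutation p = 0.1, 0.12 adjusted) and by -1.02 from that of HOXB8 (exact permutation p = 0.2, also 0.2 adjusted). For HOXD8 with HOXC8 the groups were barely apart, with the lowest control log2 ratio at -1.003 and the highest knockdown ratio at -1.017. In each of the 6 pairs the lowest control ratio was that of control replicate 2. In group 13, HOXB13, HOXC13 and HOXD13 stood at -0.04, 0.31 and -0.32, none of them called. The span between paralogues was 0.25 or less on the log2 scale in groups 4, 5, 6, 10 and 12, and 0.28 and 0.52 in groups 1 and 2.

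**Figure D4:**
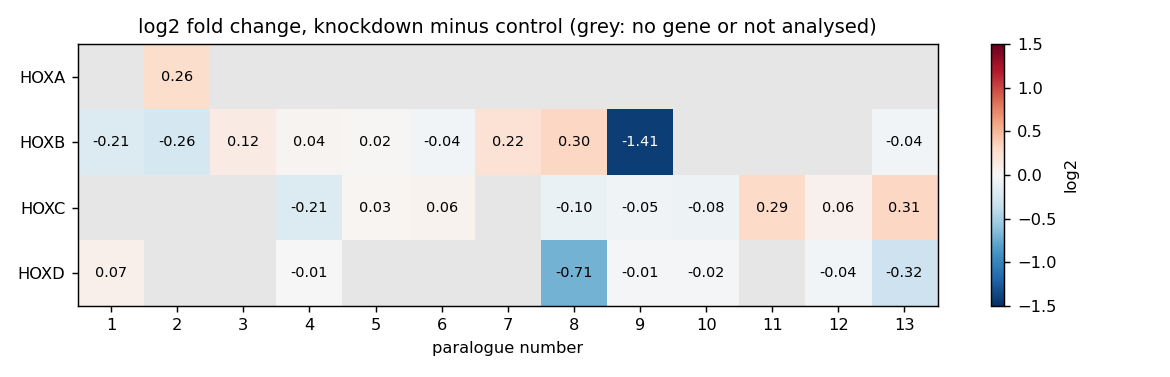
Log2 fold change, knockdown minus control, of the 27 HOX genes by cluster (rows) and paralogue number (columns), on a colour scale from -1.5 to 1.5; grey marks positions with no gene or not analysed here. The 2 darkest cells, HOXB9 (-1.41) and HOXD8 (-0.71), lie in neighbouring columns of different clusters.

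Several probe sets read 13 of the 27 HOX genes, and in 10 of the 13 all had a change of 1 sign. The exceptions were HOXA2, HOXC8 and HOXD9. In a test of all 44988 probe sets with 1 symbol, 1 of the 47 HOX probe sets was called, that of HOXB9 (adjusted p = 0.0444), beside 4.48% of all. RefSeq gives 15 of the 27 an overlapping gene, and the sources used here do not say whether the probes tell strands or neighbours apart.

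Of 160 listed genes that act with or upstream of HOX genes, 121 were measured in 7 lists. Of these, 4 rose and 8 fell, or 9.92% called beside 7.83% of all genes. Many were bright: with the dimmest 50% of genes left out 75 remained. Of those, 17 were called, beside 18.0% of all genes in that fit. With no gene left out, 13.5% of all genes at or above the median gene were called. HOX cofactors of the TALE class, which bind DNA together with HOX proteins, had 0 of 10 called. PKNOX1 had the smallest p among them, at 8.59 ± 1.34 in control and 11.7 ± 0.666 in knockdown arrays (SD, n = 3 each; log2 0.45 ± 0.12 SE, limma adjusted p = 0.0536), and their median change was 0.06. The cofactor MEIS2, named after its values were seen, measured 47.3, 72.1 and 36.5 in control and 76.5, 83.9 and 78.2 in knockdown arrays (adjusted p = 0.0978). Control replicate 2 was again the control nearest to the knockdown arrays.

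Polycomb genes, whose products silence HOX clusters, rose in 1 of 28 cases and fell in 2, with a median of -0.01. That is 10.7% called, beside 7.83% of all genes. Of the 28, 27 lay at or above the median gene, where 13.5% of all genes were called. RYBP, a subunit of a Polycomb repressive complex of the first kind, measured 107, 112 and 105 in control and 59.7, 55.6 and 60.0 in knockdown arrays. The groups were far apart and control 2 lay with the other controls, a 1.85-fold fall (log2 -0.89 ± 0.08 SE, limma adjusted p = 0.000850) that was called in all 6 fits without 1 array and at all 4 of its probe sets. With neither _x_at nor _s_at probe sets RYBP stood at -0.58 (adjusted p = 0.00761). The Polycomb subunit PHC1 fell by 0.36 and the corepressor BCOR rose by 0.37, both called among those fits only without control 2. With neither _x_at nor _s_at probe sets PHC1 stood at -0.71 (adjusted p = 0.0136), while BCOR kept its value but not its call (adjusted p = 0.0511), and 2 of the 3 BCOR probe sets had its sign. Of trithorax-side genes, which keep HOX genes on, 1 of 21 (4.76%) rose, AFF1, an elongation factor gene (0.44), with a median of 0.08. Of these 21, 18 lay at or above the median gene. Where only probe sets with neither _x_at nor _s_at in the ID were used, AFF1 stood at 0.01, and among the fits without 1 array it was called only without control 2.

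Of 16 measured genes of the retinoic acid pathway, 2 rose and 3 fell, with a median of -0.08. That is 31.25% called, beside 7.83% of all genes, and the difference between these shares was not tested. Of the 16, 8 lay at or above the median gene, where 13.5% of all genes were called. The list was chosen with earlier results of these data known. RDH10, which makes retinal from retinol, measured 12.7, 13.3 and 14.4 in control and 24.2, 25.2 and 22.9 in knockdown arrays, a 1.80-fold rise (limma adjusted p = 0.00166). DHRS3, which turns retinal back to retinol, measured 173, 141 and 188 in control and 74.9, 77.8 and 82.8 in knockdown arrays, a 2.12-fold fall (adjusted p = 0.00206). The vitamin A receptor gene STRA6 fell 2.05-fold (adjusted p = 0.00425) and ALDH1A3, a maker of retinoic acid named after its values were seen, 1.78-fold (adjusted p = 0.00447). The groups of these 4 were apart with control 2 on the control side, and all were called in each of the 6 fits without 1 array. Against control 2 alone the log2 differences of DHRS3, STRA6 and ALDH1A3 were smaller, at -0.85, -0.79 and -0.62. Against controls 1 and 3 they were -1.20, -1.16 and -0.94. For RDH10 the 2 values were 0.86 and 0.84. With neither _x_at nor _s_at probe sets STRA6 stood at -0.57 (adjusted p = 0.00976), and 3 of its 4 probe sets had the same sign. CYP26B1, which degrades retinoic acid, measured 5.73, 7.12 and 5.88 in control and 12.1, 8.59 and 13.8 in knockdown arrays, with a mean below the median gene. It rose 1.81-fold (adjusted p = 0.0247), called among the fits without 1 array only without control 2 or knockdown 2.

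Of 9 measured other upstream regulators 0 were called, beside 7.83% of all genes. GMNN, an inhibitor of replication licensing that also binds HOX and Polycomb proteins, had the smallest p, at 109, 225 and 97.5 in control and 250, 262 and 247 in knockdown arrays (limma adjusted p = 0.0809). Of 36 homeobox genes outside the clusters, 0 rose and 3 fell, or 8.33% called beside 7.83% of all genes, with a median of -0.01. MEOX2, a homeobox gene of mesoderm and vessels, fell 1.88-fold (adjusted p = 0.0285), PRRX1, of mesenchyme, 1.71-fold (adjusted p = 0.0396) and DLX2, a neural crest and forebrain gene named after its values were seen, 1.42-fold (adjusted p = 0.0231). Among the fits without 1 array, MEOX2 and DLX2 were called only without control 2 or 3 and PRRX1 only without control 2. Of the 3 DLX2 probe sets only the one used had its sign. With neither _x_at nor _s_at probe sets PRRX1 stood at -0.65 and was not called (adjusted p = 0.220), and MEOX2 had no value.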

How the data were processed

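Intensity values deposited by the authors, 1 per probe set and array, are linear and come from RMA, per the submitters' processing notes; its version is not stated there. RMA corrects background, normalizes quantiles and compresses folds of dim probe sets. Log2 of the deposited intensity was taken without a pseudocount. Of 49293 probe sets, 44988 carried 1 symbol, and the one with the highest mean log2 value over the 6 arrays stood for its gene, giving 18132 genes with no filter. Groups came from the sample titles. The groups were compared in R 4.3.3 with limma 3.58.1 (lmFit, then eBayes with no trend). P-values were adjusted by Benjamini-Hochberg across the 18132 genes, and 0.05 was the threshold. The step was tested on simulated arrays. Changes of 0.5, 1, -1 and 2 on the log2 scale were called in 42%, 84%, 90% and 100% of 50 genes each. Of 164 calls, 3.66% were false. Noise was drawn gene by gene, without a shift shared by the genes of 1 array such as that of control replicate 2. SD values are the spread between the 3 arrays of a group. SE values are limma's moderated standard errors of the log2 difference between the groups.

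Named were MAP4K5, HOX genes past the test, the largest rise, largest fall and brightest gene of each cluster, and up to 2 rises and 2 falls past the test of each list or its smallest p. All other HOX genes follow. The HOX genes and lists were chosen with earlier results of these data known. RefSeq (GRCh38.p14) served for names, gene order and sequences. Arrays of the same number were not treated as pairs. Tables and plots were made in Python 3.11.15 (pandas 2.3.3, numpy 2.4.6, scipy 1.17.1, matplotlib 3.10.9).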

Additional observations from a re-analysis of the deposited data

How the results depend on the processing

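The fall of HOXB9 and the absence of other HOX calls were the same with the replicate number as a block (1 fell, 0 rose; HOXB9 -1.41, adjusted p = 0.0243), an intensity trend, arrays shifted to a common median, repeated quantile normalization, the lowest 25% or 50% of genes left out (23 and 17 HOX genes remaining), probe sets averaged by gene, probe sets ending in _x_at or _s_at left out (26 remaining, without HOXD8) and a test per probe set. The block changed no HOX call and moved the calls over all genes from 1420 to 1188. The labels link same-numbered arrays by their number alone. Deviations of these arrays from the group means correlated at -0.08, 0.02 and 0.06 over genes, and control 1 and control 2 each correlated best with another number. Deviations from a mean of 3 arrays depend on one another, so these correlations cannot decide whether the arrays were pairs. With array weights 1 HOX gene rose and 2 fell, beside 17.1% of all genes called, and 22 of the 121 pathway genes were called in place of 12. With 8 added before the log 1 rose (HOXB7) and 1 fell (HOXC4, with HOXB9 lost), beside 7.73% of all genes. Leaving out 1 array at a time gave 0 to 3 HOX genes that rose and 0 to 2 that fell. It gave 5 to 29 of the 121 pathway genes called. The upper end was each time without control replicate 2. The share of all genes called in these fits ran from 1.79% to 20.6%, also highest without control replicate 2. The uncalled difference of HOXC6 ran from -0.085 (without control replicate 3) to 0.19 (without control replicate 2). MAP4K5 kept its call and direction in every fit listed. The cause of these shifts was not tested. No detection calls enter the values, so dim HOX genes have no stated detection limit.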
